A study of Arabidopsis thaliana with 27 samples.

Results

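Small nucleolar RNAs (snoRNAs) with an Ensembl non-coding RNA identifier, one that starts with ENSRNA, formed 132 of the 2071 small RNA loci in the count table. They were chosen by row name alone, and the symbol at the end of the name grouped them into 53 symbols, of which 14 had a single locus and 39 had more. Counts were found for 129 loci and 3 were at 0 in all 27 libraries. A pair of rows with identical values, 1 count each, was counted once, which left 128 distinct rows. After the filter on low counts 102 loci were tested, and the 27 others with counts held between 1 and 122 counts each over all libraries.

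The libraries came from etiolated hypocotyls of Arabidopsis thaliana. The 3 genotypes were wild type Columbia-0, xpf-3, which carries a mutant allele of the XPF endonuclease of nucleotide excision repair, and uvr8-6, which carries a mutant allele of the UV-B photoreceptor UVR8. Each was kept as a dark control or exposed to 3000 or 30000 µmol m-2 of UV-B, for about 5 or 45 min, and each of the 9 groups had 3 libraries. Seeds of every group had first spent 2.5 days in the dark on 0.5x MS medium with 100 µM of the gibberellin GA4, and all went back to the dark until collection. Collection is given as 6 hours after exposure in the extraction protocol and as 2 days in the series title. Each mutant was represented by a single allele. Nothing in the labels says that the replicates were grown separately. A p-value here therefore reflects how these libraries vary, and part of that may be technical. The table holds no messenger RNA, so neither the mutated genes nor the tissue could be checked against their own transcripts.

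snoRNAs are short RNAs of the nucleolus that pair with other RNAs, mainly ribosomal RNA, and bring modifying enzymes to the paired site. Box C/D snoRNAs direct 2′-O-methylation and carry a C box near the 5′ end and a D box near the 3′ end, while box H/ACA snoRNAs direct pseudouridylation and end in an ACA box a few bases from the 3′ end. A few of them, among them U3 and U14 (SNORD14), are needed for the cleavages that release 18S ribosomal RNA from its precursor. Plant snoRNAs are often encoded in clusters and in several copies, so that a symbol here can stand for several loci.

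For 53 of the 132 loci the table also held a row with an AT gene identifier and the same or nearly the same counts, either equal in every library (15 loci with at least 10 counts) or different by under 1% of their counts in sum (38 loci with at least 50 counts, largest difference 0.885%). The AT identifiers led to sequences and positions in RefSeq (build TAIR10.1), where all 53 are annotated as snoRNAs of 72 to 702 bases (median 87). The pairing rests on the counts, and the other loci have no sequence here. A C box (TGATGA) followed by a D box (CTGA) on the annotated strand was found in 44 of the 53 (83.0%), against 47.7% of all 287 RefSeq snoRNA entries and 1.39% of their reverse complements. Of the 53, 31 overlapped no other annotated gene and 4 lay in an intron of a protein-coding gene on the same strand. Within 500 bases of another of the 53 on the same strand lay 27, in 11 clusters of up to 4. Other snoRNA entries were not counted as neighbours.

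The sequences of the loci on which the results below turn are given 5′ to 3′, with the C and D boxes in capitals. The snoZ152 copies are shown because their levels differed in opposite directions in uvr8-6. AT4G06310 lies at chr4:8712720-8712813 (minus strand) and AT4G06250 at chr4:8460056-8460149 (plus strand). AT3G04165 lies at chr3:7682639-7682749 (plus strand), 43 bases after snoR11 AT3G04155 at chr3:7682509-7682595 (plus strand). AT4G06310 and AT4G06250 differed at 1 of 94 bases, so that the split of reads between them is uncertain. AT3G04165 was identical to AT4G06310 at 70.4% of aligned positions.
snoZ152 AT4G06310: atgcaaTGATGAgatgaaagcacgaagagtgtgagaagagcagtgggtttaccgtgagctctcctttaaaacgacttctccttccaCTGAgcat
snoZ152 AT4G06250: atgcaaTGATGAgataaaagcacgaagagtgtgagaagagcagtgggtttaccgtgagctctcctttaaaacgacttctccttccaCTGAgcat
snoZ152 AT3G04165: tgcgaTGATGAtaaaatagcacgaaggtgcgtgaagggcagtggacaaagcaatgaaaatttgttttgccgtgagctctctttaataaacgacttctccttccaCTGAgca
snoR11 AT3G04155: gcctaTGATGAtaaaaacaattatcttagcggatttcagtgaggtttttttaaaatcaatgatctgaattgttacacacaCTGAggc

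The 4 SNORD14 copies stand in 1 cluster on the plus strand of chromosome 4, with gaps of 245, 39 and 48 bases, from AT4G39361 at chr4:18304891-18305010 (plus strand) to AT4G39366 at chr4:18305585-18305704 (plus strand). They were 87.0 to 90.2% identical to each other. AT4G39363 and AT4G39366 are shown because they bracket the range of change in uvr8-6, and in AT4G39363 the letters TGATGA were not found before a CTGA.
SNORD14 AT4G39363: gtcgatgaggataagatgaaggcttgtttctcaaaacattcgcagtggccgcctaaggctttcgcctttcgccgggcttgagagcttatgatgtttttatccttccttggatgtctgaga
SNORD14 AT4G39366: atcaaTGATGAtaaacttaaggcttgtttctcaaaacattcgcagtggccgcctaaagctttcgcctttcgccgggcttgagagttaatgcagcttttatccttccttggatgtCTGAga

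The 3 tested snoZ103 copies stand in 1 cluster on the minus strand of chromosome 5, at chr5:5674183-5674279 (minus strand), chr5:5674408-5674499 (minus strand) and chr5:5674579-5674672 (minus strand), within the long non-coding RNA gene AT5G02645. The first copy was 92.8% identical to the second and 80.0% to the third. They are shown because all of them were lower in uvr8-6.
snoZ103 AT5G02655: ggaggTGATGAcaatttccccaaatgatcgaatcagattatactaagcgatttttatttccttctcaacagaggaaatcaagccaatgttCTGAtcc
snoZ103 AT5G02665: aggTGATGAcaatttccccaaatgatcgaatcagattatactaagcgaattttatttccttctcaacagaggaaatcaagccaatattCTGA
snoZ103 AT5G02675: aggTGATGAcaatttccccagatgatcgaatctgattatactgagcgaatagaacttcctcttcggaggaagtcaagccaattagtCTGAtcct

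snoR86 AT1G06553, at chr1:11685235-11685376 (plus strand), has neither box and is 142 bases long. It ended in ACA followed by 3 bases (capitals), as 18.1% of all RefSeq snoRNA entries and 2.09% of their reverse complements do, and it was the only one of the 53 to do so. Its neighbour 90 bases upstream, snoZ101 AT1G32385 at chr1:11685060-11685144 (plus strand), has both boxes.
snoR86 AT1G06553: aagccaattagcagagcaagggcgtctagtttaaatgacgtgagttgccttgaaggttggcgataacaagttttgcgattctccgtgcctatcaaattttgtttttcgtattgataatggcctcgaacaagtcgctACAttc
snoZ101 AT1G32385: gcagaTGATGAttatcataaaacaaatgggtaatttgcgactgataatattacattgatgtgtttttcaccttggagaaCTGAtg

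Library totals ran from 681228 to 1970871 counts, and each library held 8245 to 27877 counts on these snoRNAs. Chi-square per degree of freedom between replicates over these loci was 3.44 to 47.0 in 27 pairs, where counting error alone gives values near 1. The highest values, 38.8 and 47.0, both involved uvr8-6 replicate 2 after 30000 µmol m-2, and results are given with and without that library where it matters.

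The 132 loci together took 1.43% of all counts. A single locus, snoR121 (ENSRNA049495654), took 21.0% of that, and the 10 loci with most counts took 46.6%. These are shares of counts and not of molecules, since locus lengths differ and most are unknown here. A level here means small RNA reads counted on a locus. Whether such reads came from whole snoRNAs or from pieces of them was not tested, so a change need not be one of the full-length RNA. At the other end, the 16 loci named snoR9_plant held 130 counts in all and none could be tested, as with the snoJ33 and snoR20 loci. Within symbols 1 locus often held most counts, such as 98.9% for SNORD25 and 92.9% for snoR4a, while the 4 SNORD14 copies were more even, the leading one holding 31.8%.

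Summed over all loci, the level in CPM (counts scaled to the same effective library size by TMM, a normalization that assumes most loci do not change) was 12074 ± 950 in the wild type, 12487 ± 1369 in xpf-3 and 18920 ± 5497 in uvr8-6 (SD, n = 9 libraries each, treatments together). No wild-type library was above 14320 and no uvr8-6 library was below 15516. Unscaled shares of all counts overlapped, at 1.03 to 1.80% in the wild type and 1.37 to 2.38% in uvr8-6. Without snoR121 the sums in CPM were 10538 ± 778 and 12449 ± 1465. Their ranges of 9607 to 12153 and 10706 to 15260 overlapped. snoR121 thus made up most of the difference between the 2 means, on which no test was made. In bulk tissue, fewer cells of a type and less RNA per cell cannot be told apart.

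**Figure D1:**
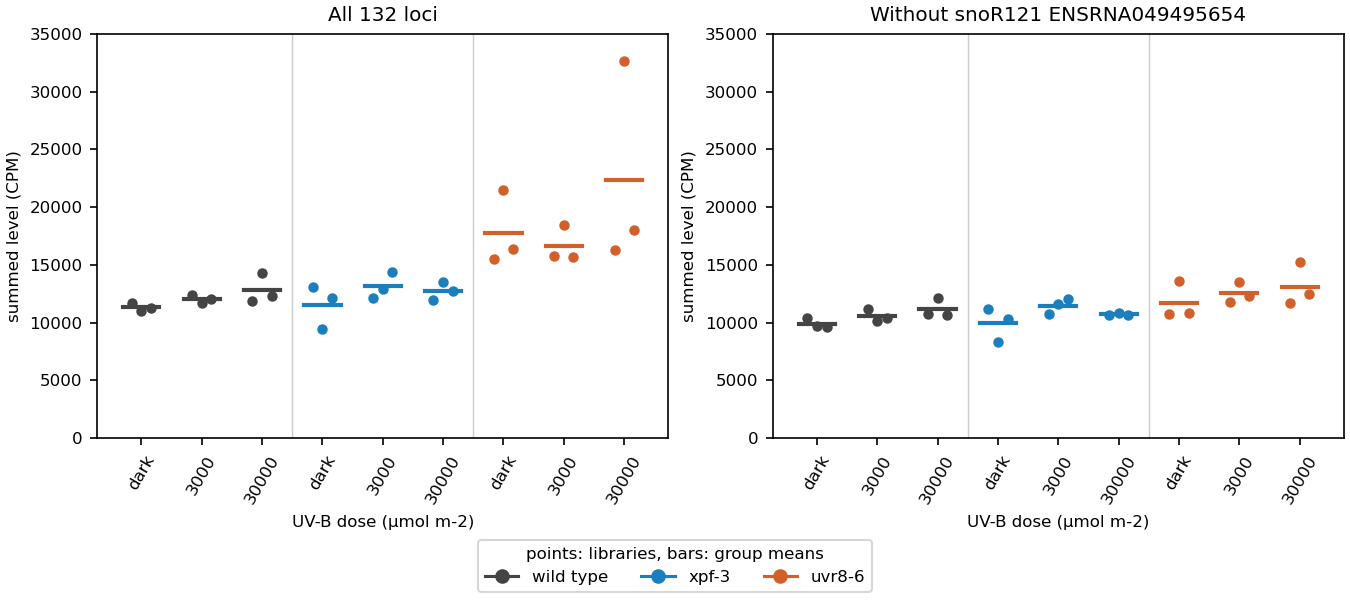
Summed level (CPM) of the 132 snoRNA loci in each library, with snoR121 on the left and without it on the right, by genotype and UV-B dose. Points are libraries and bars are group means of 3. On the left the lowest uvr8-6 library is at 15516 and the highest wild-type library at 14320, while on the right the genotypes overlap. Unscaled shares of counts, not shown, overlap with snoR121 included.

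The clearest contrast was between uvr8-6 and the wild type over the 3 treatments. It asks whether small RNA counts on snoRNA loci differ in the photoreceptor mutant across treatments. With edgeR's quasi-likelihood test and an adjusted p under 0.05 over all 1109 loci tested, 22 of the 102 loci were higher in uvr8-6 and 16 were lower, 37.3% in all. Over all loci the percentage was 30.5, so a change of this kind was common among small RNAs of every class. Of the 167 other snoRNA loci tested that are not paired with one of these, 46.1% were called, 54 higher and 23 lower. Scaling libraries on snoRNA rows alone shifts the median of all loci by -0.16 on the log2 scale. Then 17 of the 102 loci were higher and 20 lower, and 33 of the loci called were the same. The share called over all loci was not counted with this scaling. The members' median log2 change was 0.04, against -0.02 over all loci and 0.17 for the other snoRNA loci. All 38 had the same direction of group means in the dark and after each dose. They were called on the mean over these 3 treatments, which favours such agreement, and the share over all loci was not computed. For 11 of the 102 loci the 9 uvr8-6 and 9 wild-type libraries did not overlap, 9 higher and 2 lower, against 5.68% over all loci. All 38 lay between -0.44 and 0.56 on the log2 scale in xpf-3 against the wild type.

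**Figure D2:**
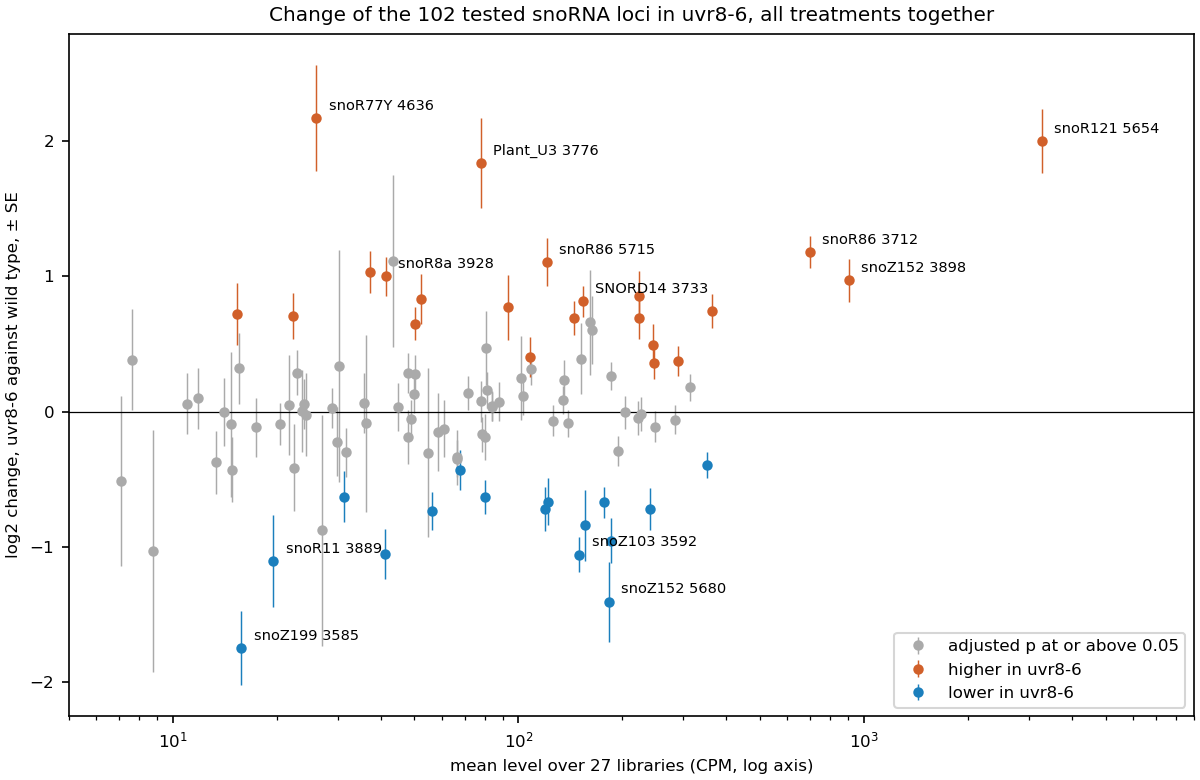
log2 change in uvr8-6 against the wild type, ± SE, of each of the 102 tested snoRNA loci over its mean level in all libraries (CPM, log axis), with the last 4 digits of the identifier beside some names. Coloured points passed the adjusted p, 22 higher and 16 lower, and the most counted locus, snoR121, stands at 2.00.

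snoR121 was at 1186, 1574 and 2167 CPM (lowest, median and highest) in the wild type, at 1137 to 2678 in xpf-3, and at 3414, 4923 and 17414 in uvr8-6. Every uvr8-6 library stood above every other library, and 17414 was the library that stands apart. The log2 change was 2.00 ± 0.24 (SE, edgeR adjusted p = 4.89e-06), and 1.74 without that library. Already in the dark the log2 change was 2.08 ± 0.41 (adjusted p = 0.00459). It took 12.7 ± 2.0% of these loci's counts in wild-type libraries and 32.0 ± 9.1% in uvr8-6 libraries (SD, n = 9).

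Both snoR86 loci were higher in uvr8-6. ENSRNA049493712 was at 394, 488 and 557 CPM in the wild type and at 805, 1081 and 1419 in uvr8-6, a log2 change of 1.18 ± 0.12 (adjusted p = 9.14e-07). ENSRNA049495715, paired with the AT1G06553 sequence that ends in an ACA box, was at 69.3, 83.2 and 118 CPM and at 143, 176 and 278. Its log2 change was 1.11 ± 0.17 (adjusted p = 0.000111), and at neither locus did the libraries of both genotypes overlap. The neighbouring snoZ101 AT1G32385 (ENSRNA049495727), 90 bases away on the same strand, changed by 0.71 ± 0.17 (adjusted p = 0.00314), from a median of 17.7 CPM to 29.1.

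snoR77Y ENSRNA049494636 had the largest log2 change of the 38, 2.17 ± 0.39 (adjusted p = 0.000314), at few counts. It was at 5.59, 10.8 and 17.1 CPM in the wild type and at 18, 28.7 and 136 in uvr8-6. The highest value was again the library that stands apart, without which the log2 change was 1.73. The other locus of that symbol, ENSRNA049494622, changed by 0.04 and its counts differed from those of the snoZ7 locus ENSRNA049494595 by 2 of 2821, so these rows cannot be told apart.

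snoZ152 copies differed between the genotypes in opposite directions. ENSRNA049493898, paired with AT4G06310 on chromosome 4, was at 491, 666 and 809 CPM in the wild type and at 976, 1195 and 2325 in uvr8-6, with no overlap. The log2 change was 0.97 ± 0.16 (adjusted p = 0.000148), and 0.83 without the library that stands apart. ENSRNA049495680, paired with AT3G04165 on chromosome 3, was at 134, 226 and 371 CPM in the wild type and at 26.1, 76.5 and 193 in uvr8-6, a log2 change of -1.40 ± 0.29 (adjusted p = 0.00116). The chromosome 4 copy held 63.3 to 81.4% of the symbol's counts in wild-type libraries and 83.3 to 96.9% in uvr8-6 libraries, and 63.7 to 86.0% in xpf-3 libraries. How reads that match both copies were counted is not given, and their effect on the opposite directions was not tested. The snoR11 copy AT3G04155 (ENSRNA049495681), 43 bases before AT3G04165, changed by 0.11 ± 0.14 (adjusted p = 0.613).

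Of the RNAs needed for 18S processing, 4 of 12 tested loci were higher in uvr8-6 and none was lower. This is 33.3%, near the 30.5% called over all loci, where 14.3% were higher, and the median log2 change was 0.48 against -0.02 over all loci. SNORD14, known as U14, pairs with the 18S sequence of the precursor in yeast and is essential there. ENSRNA049493733 (AT4G39366) was at 97.3, 122 and 150 CPM in the wild type and at 164, 219 and 257 in uvr8-6, a log2 change of 0.82 ± 0.11 (adjusted p = 2.81e-05). Its neighbour ENSRNA049493737 (AT4G39364) changed by 0.69 ± 0.13 (adjusted p = 0.000314), and neither overlapped between the genotypes. The remaining copies of the cluster were at log2 changes of 0.31 ± 0.12 (AT4G39361, adjusted p = 0.0555) and 0.27 ± 0.10 (AT4G39363, adjusted p = 0.0580). Differences between the copies' changes were not tested. The copies are similar in sequence, and how reads that match several of them were counted is not given, so their changes need not be independent. Summed over the 4 copies, SNORD14 changed by 0.55 ± 0.08 (adjusted p = 5.00e-05).

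U3, which pairs with the 5′ external transcribed spacer of the ribosomal precursor, had 9 loci, 8 of them tested. ENSRNA049493776, paired with AT5G54075 at chr5:21945349-21945709 (minus strand), was at 12.6, 39.2 and 104 CPM in the wild type and at 70.9, 123 and 258 in uvr8-6. The log2 change was 1.84 ± 0.33 (adjusted p = 0.000314), with overlap of the highest wild-type and lowest uvr8-6 libraries. This locus overlaps an exon of the heat shock factor gene HSFA9 on the opposite strand, and the counting is not stated to use strand, so reads of both cannot be told apart. ENSRNA049493783 changed by 0.49 ± 0.15 (adjusted p = 0.0179), and the 6 others tested lay between -0.31 and 1.12 without passing. The sum over the U3 loci changed by 0.62 ± 0.09 (adjusted p = 3.22e-05).

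**Figure D3:**
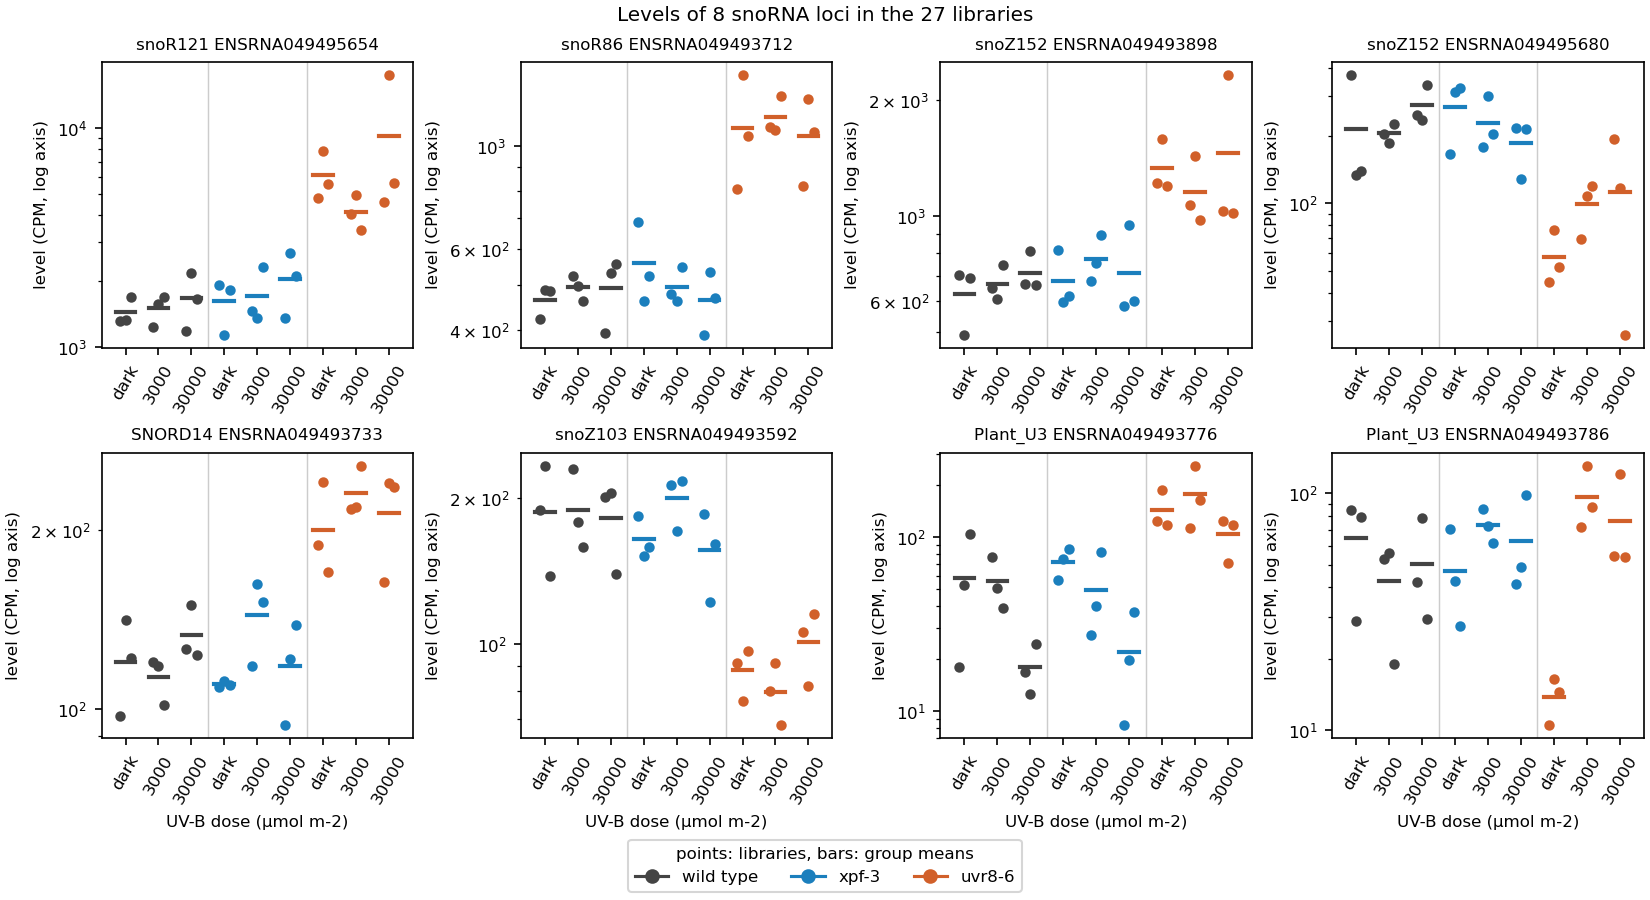
Level (CPM, log axis) of 8 snoRNA loci in all 27 libraries, by genotype and UV-B dose. Points are libraries and bars are group means of 3. For snoR121, snoR86, snoZ152 ENSRNA049493898 and SNORD14 all uvr8-6 points lie above the wild type, for snoZ103 all lie below, and U3 ENSRNA049493786 is low in uvr8-6 in the dark alone, at 10.5 to 16.5 CPM.

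Among the loci that were lower, the 3 loci of the snoZ103 cluster were all lower. ENSRNA049493592 (AT5G02675) was at 138, 189 and 233 CPM in the wild type and at 68.1, 91.4 and 115 in uvr8-6, with no overlap, and changed by -1.06 ± 0.13 (adjusted p = 6.42e-06). ENSRNA049493594 (AT5G02665) changed by -0.95 ± 0.17 (adjusted p = 0.000223) and ENSRNA049493591 (AT5G02655) by -0.66 ± 0.17 (adjusted p = 0.00613). All 3 lie inside 1 annotated long non-coding RNA gene on the same strand, and thus share an annotated host. AT5G02655 and AT5G02665 were 92.8% identical and share long unbroken stretches. How reads that match several copies were counted is not given, so these changes need not be independent.

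Both snoZ199 loci were lower. ENSRNA049493585 was at 13.6, 19.2 and 25.7 CPM in the wild type and at 1.5, 5.81 and 15.9 in uvr8-6, and fell by 1.75 ± 0.27 (adjusted p = 0.000111). ENSRNA049495685 (AT3G00985) fell by 0.63 ± 0.12 (adjusted p = 0.000664). Its neighbour 208 bases away, snoR64 AT3G01313 (ENSRNA049495670), fell by 0.43 ± 0.15 (adjusted p = 0.0298). This call missed the threshold in 10 of 26 alternatives (adjusted p up to 0.0820), those without the paired AT rows and without wild-type dark replicate 3, lower-dose replicate 1 or 3 or higher-dose replicate 2, or uvr8-6 dark replicate 2, lower-dose replicate 1 or 3 or higher-dose replicate 1 or 3. Of the 3 tested snoR11 loci, ENSRNA049493894 changed from 38.9, 51.1 and 70.3 CPM to 10.5, 26.7 and 38.4, with no overlap and a log2 change of -1.05 ± 0.18 (adjusted p = 0.000248), and ENSRNA049493889 changed by -1.11 ± 0.34 (adjusted p = 0.0162; 0.0537 without wild-type lower-dose replicate 1). The third, AT3G04155, is the one given above that did not pass.

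The other higher loci were snoR98 ENSRNA049495656 (1.03), a pair of snoR8a loci (1.0 and 0.69), snoZ159 (0.85), snoR44_J54 (0.83 and 0.38), SNORD24 ENSRNA049493726 (0.77), snosnR60_Z15 ENSRNA049495684 (0.74), snoZ221_snoR21b (0.72), snoR31_Z110_Z27 (0.65), snoZ279_R105_R108 ENSRNA049495720 (0.40) and snoR109 (0.36), as log2 changes. snosnR60_Z15 is named after the yeast box C/D snoRNA snR60, which guides methylation of 25S ribosomal RNA. The snoR109 row differed from a row listed as the miRNA AT4G07080 by 20 of 8048 counts, so its class rests on the row name. The other lower loci were snoZ43 (-0.84), snoU36a ENSRNA049493899 (-0.73), both snoZ102_R77 loci (-0.72 and -0.40), snoR135 (-0.72), snoR41 (-0.67) and snoR120 (-0.63). Of these, snoZ279_R105_R108 missed the threshold in 12 of 26 alternatives (adjusted p up to 0.272), and 7 single libraries decided it, namely wild-type dark replicate 3, lower-dose replicate 3 and higher-dose replicates 1 and 2, and uvr8-6 dark replicate 2, lower-dose replicate 2 and higher-dose replicate 2. Calls were also lost for snoR109 without wild-type higher-dose replicate 1 or uvr8-6 dark replicate 2, for SNORD24 without uvr8-6 higher-dose replicate 2, for snoZ43 without wild-type higher-dose replicate 2 and for snoZ221_snoR21b without uvr8-6 lower-dose replicate 2.

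**Figure D4:**
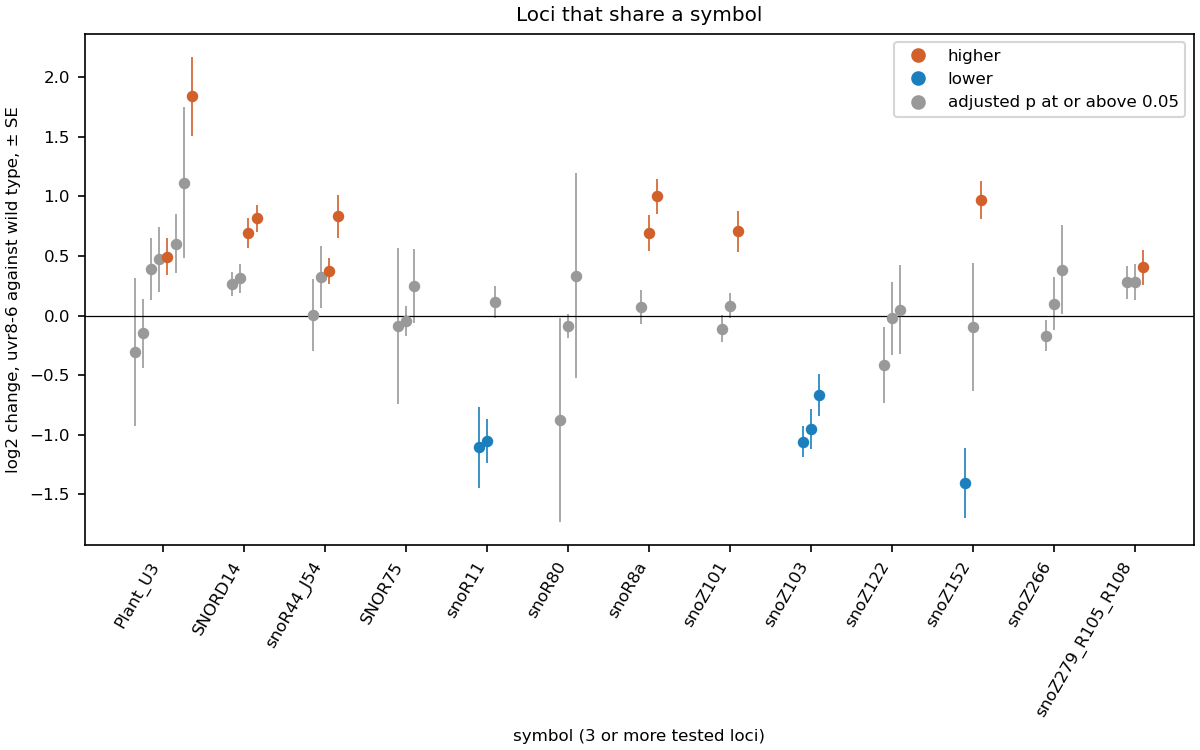
log2 change in uvr8-6 against the wild type, ± SE, of each tested locus of the 13 symbols with 3 or more tested loci. Orange and blue points passed the adjusted p. All 3 snoZ103 loci are lower, and snoZ152 has 1 locus at 0.97 and 1 at -1.40.

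Loci that share a symbol did not as a rule pass together. Of 33 symbols with 2 or more tested loci, 22 had at least 1 call, 4 had all their loci called the same way (snoZ103, snoR86, snoZ199 and snoZ102_R77), and 1 (snoZ152) had calls in both directions. With the counts of each symbol summed, 15 of 49 symbols were higher in uvr8-6 and 7 were lower, against 10 higher and 15 lower with library sizes from snoRNA rows. The share called over all rows of these fits was not counted.

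In the dark alone, which removes the exposure from the contrast, 12 loci were higher in uvr8-6 and 7 lower (18.6%, against 11.6% over all loci, 4.78% higher and 6.85% lower). Of these 19, 17 were among the 38 with the same direction. The dark libraries are part of both contrasts, which favours such overlap, and the share over all loci was not computed. The count of 19 rested on few libraries. It was 5 without uvr8-6 dark replicate 2, 9 without wild-type dark replicate 1, and 0 when only these 2 groups were fitted, so the calls in the dark depend on single libraries and on the fit.

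Against the wild type, xpf-3 showed no called snoRNA. Over the treatments 0 of 102 loci passed against the wild type with edgeR and 0 with DESeq2, as over all 1109 loci with edgeR, and 1 had an unadjusted p under 0.05. In the dark 0 passed with either tool and 4 had an unadjusted p under 0.05 with edgeR. The smallest p over treatments was that of snoZ266 ENSRNA049493569, at a log2 change of 0.38 ± 0.13 (adjusted p = 0.475).

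After UV-B exposure a smaller set of loci differed from the dark. In the mean of the 3 genotypes, 15 loci were higher after 30000 µmol m-2 than in the dark and 2 were lower, 16.7% against 16.9% over all loci, where 7.94% were higher and 8.93% lower. The median log2 change was 0.25 for these loci, 0.25 for the other 167 snoRNA loci tested that are not paired with one of them, and 0.11 for all loci. With libraries scaled on snoRNA rows the median of all loci shifts by -0.23, and 4 were then higher and 8 lower, with 6 calls shared. The share called over all loci was again not counted. Each of the 17 loci kept its sign under every alternative in which it was fitted, this scaling included, while the set of loci that passed changed. The higher loci changed by 0.42 to 0.88 on the log2 scale, and 16 of the 17 had the same sign in every genotype. These loci were called on the mean of the 3 genotypes, which favours such agreement, and the share over all loci was not computed.

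snoR11 ENSRNA049495681 (AT3G04155) was at 56.0, 73.5 and 90.4 CPM in the dark and at 77.8, 124 and 163 after the higher dose, in 9 libraries each. Its log2 change was 0.70 ± 0.14 (adjusted p = 0.00184), at 0.79 in the wild type, 0.64 in xpf-3 and 0.67 in uvr8-6. It was also the 1 locus called after 3000 µmol m-2, at 0.62 ± 0.14 (adjusted p = 0.0290; 0.902% called over all loci). That call was lost in 5 of 26 alternatives (adjusted p up to 0.0949), namely with library sizes from snoRNA rows, with no filter on low counts, and without xpf-3 dark replicate 1, xpf-3 lower-dose replicate 2 or uvr8-6 lower-dose replicate 2. snoZ101 ENSRNA049495750 (AT2G35382, at chr2:14894380-14894455 (minus strand)) went from 138, 206 and 232 CPM to 228, 295 and 405, by 0.57 ± 0.12 (adjusted p = 0.00205). snoR60 ENSRNA049493802 went from 13.5, 19.5 and 43.7 CPM to 20.8, 44.3 and 48.7, by 0.84 ± 0.18 (adjusted p = 0.00353). These 3, with snoR4a ENSRNA049495717 (0.49) and U3 ENSRNA049493776, passed under every alternative tried, snoRNA scaling included. The dark and exposed libraries overlapped at each of them (0.451% of all loci did not).

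The sequence of the snoZ101 locus, called here after the higher dose, and that of snoZ105 AT3G08165, at chr3:18893230-18893310 (minus strand) and called in the wild type, are given with the C and D boxes in capitals.
snoZ101 AT2G35382: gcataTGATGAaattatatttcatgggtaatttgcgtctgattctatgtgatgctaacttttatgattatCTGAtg
snoZ105 AT3G08165: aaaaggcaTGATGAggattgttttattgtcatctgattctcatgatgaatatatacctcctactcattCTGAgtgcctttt

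U3 ENSRNA049493776 was lower after the higher dose, from 17.8, 85.3 and 188 CPM to 8.27, 24.1 and 124, a log2 change of -1.30 ± 0.33 (adjusted p = 0.0109). In the wild type it was at 17.8, 53.4 and 104 CPM in the 3 dark libraries and at 16.7, 12.6 and 24.1 after the dose. The other lower locus was snoZ102_R77 ENSRNA049493698, at -0.36 ± 0.10 (adjusted p = 0.0181). That call was missed in 8 of 26 alternatives (adjusted p up to 0.0708), 6 of them without 1 library, namely wild-type dark replicate 3 or higher-dose replicate 2, xpf-3 dark replicate 1 or higher-dose replicate 3, or uvr8-6 dark replicate 2 or higher-dose replicate 3. The remaining higher loci were both snoZ199 loci (0.88 and 0.42), snoR1 (0.71), snoZ105 ENSRNA049494524 (0.62), snoR11 ENSRNA049493894 (0.58), SNORD24 ENSRNA049493810 (0.52), snoR64 (0.50), snoZ7 and snoR77Y (0.49 and 0.48, rows that cannot be told apart), SNOR75 (0.47) and snoZ279_R105_R108 ENSRNA049493400 (0.42). The last of these was missed in 11 of 26 alternatives (adjusted p up to 0.336), 9 of them without 1 library, namely wild-type dark replicate 1 or higher-dose replicate 2, xpf-3 dark replicate 1 or 2 or higher-dose replicate 1 or 3, or uvr8-6 dark replicate 1 or 3 or higher-dose replicate 2. The call of snoZ199 ENSRNA049493585 was lost without uvr8-6 dark replicate 1 or higher-dose replicate 2, and that of snoZ105 without xpf-3 higher-dose replicate 3. With library sizes from snoRNA rows none of these remaining higher loci passed. Summed by symbol, 16 of 49 were higher and none was lower, against 3 higher and 5 lower with library sizes from snoRNA rows. The share called over all rows of these fits was not counted, so the symbol counts have no background beside them.

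**Figure D5:**
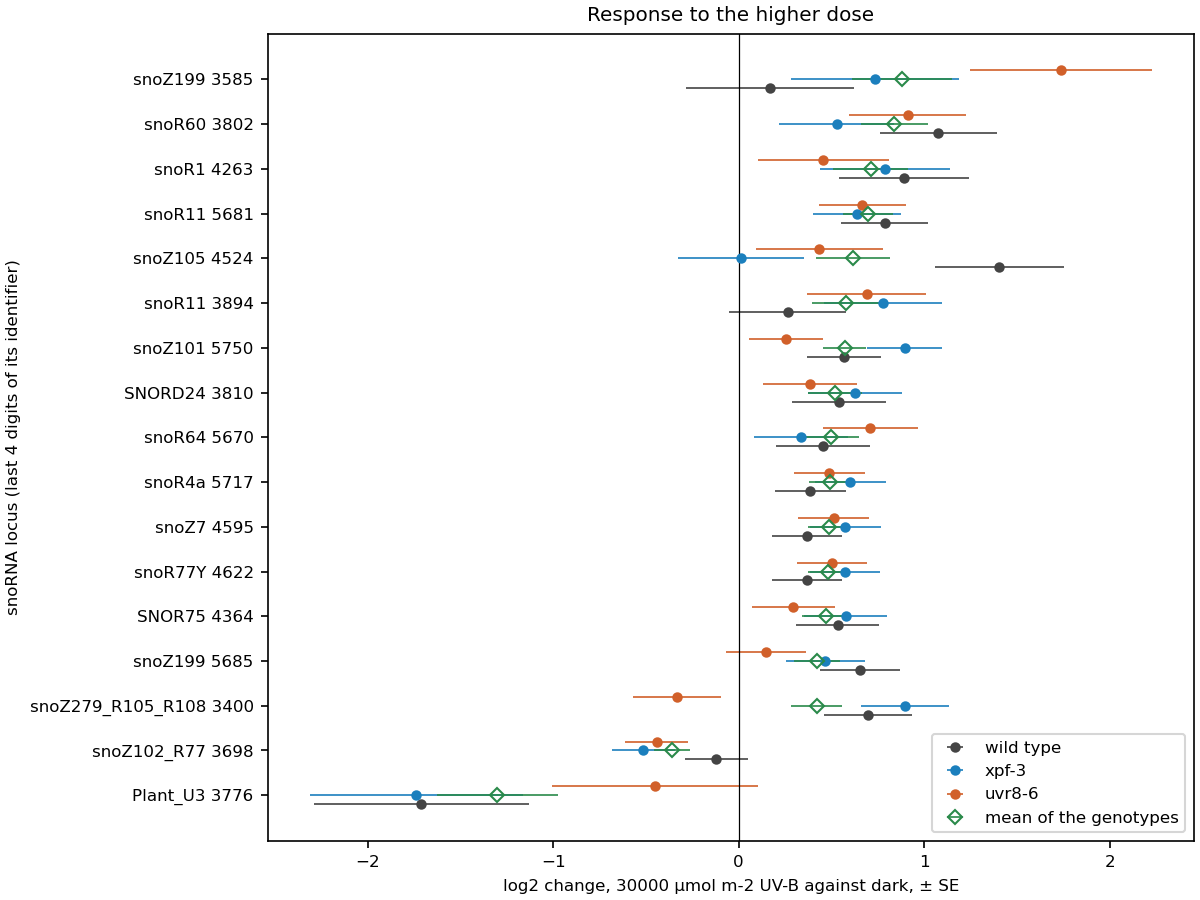
log2 change after 30000 µmol m-2 UV-B against dark, ± SE, of the 17 loci called in the mean of the genotypes, shown for each genotype and for the mean, with the last 4 digits of each identifier. Of the 17, 16 have the same sign in every genotype, which the choice by their mean favours. snoZ279_R105_R108 is at 0.70 and 0.90 in the wild type and xpf-3 and at -0.33 in uvr8-6.

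Within genotypes few loci passed. After the higher dose 1 locus was called in the wild type (1.89% over all loci), snoZ105 ENSRNA049494524. It was at 34.9, 37.1 and 13.7 CPM in the dark and at 79.7, 77.8 and 71.1 after the dose, with no overlap (17.6% of all loci) and a log2 change of 1.40 ± 0.35 (adjusted p = 0.0362). In xpf-3 its change was 0.01 ± 0.34, and the difference from the wild type was -1.39 ± 0.48 (adjusted p = 0.682). In xpf-3 2 loci were called (4.87% over all loci). snoZ101 ENSRNA049495750 was at 182, 138 and 188 CPM in the dark and at 325, 327 and 294 after the dose, a change of 0.89 ± 0.20 (adjusted p = 0.0132). snoZ279_R105_R108 ENSRNA049493400 was at 27.6, 26.2 and 31.5 CPM and then at 57.4, 39.9 and 61.6, a change of 0.90 ± 0.24 (adjusted p = 0.0334). The wild-type call was missed in 5 of 14 alternatives, among them those without dark replicate 3 or higher-dose replicates 1 or 2. Both xpf-3 calls were lost without dark replicate 2. In all, the snoZ279_R105_R108 call was missed in 7 of 14 alternatives (adjusted p up to 0.140) and the snoZ101 call in 2 (up to 0.0972). After the lower dose 0 loci were called in any single genotype, with 3, 16 and 4 at an unadjusted p under 0.05 in wild-type, xpf-3 and uvr8-6 libraries respectively, and 0, 7 and 1 called by DESeq2. Over all 1109 loci 67, 163 and 56 had such a p and edgeR called 0, 6 and 0 (0%, 0.541% and 0%). DESeq2 calls over all loci were not counted.

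In uvr8-6, U3 ENSRNA049493786 was called after the higher dose (0.541% over all loci). It was at 10.5, 16.5 and 14.5 CPM in the dark, at 71.8, 131 and 87.3 after the lower dose and at 54.1, 121 and 53.8 after the higher. The exposed libraries all stood above the dark ones, and 9.2% (lower dose) and 16% (higher dose) of all loci did not overlap with the dark. The log2 changes were 2.80 ± 0.55 (adjusted p = 0.0595) and 2.46 ± 0.54 (adjusted p = 0.0379), and the second missed the threshold in 9 of 14 alternatives, among them every fit without 1 of the uvr8-6 dark or higher-dose libraries. In the wild type the same locus was at 84.9, 29.0 and 79.5 CPM in the dark, at 53.0, 55.9 and 19.1 after the lower dose and at 42.3, 78.9 and 29.5 after the higher, which overlap. In the dark it was lower in uvr8-6 than in the wild type, by -2.22 ± 0.54 (adjusted p = 0.0140), a call missed in 6 of 14 alternatives.

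Tests of whether a mutant's response differed from that of the wild type called 0 of 102 loci for either mutant and either dose with edgeR. Unadjusted p-values under 0.05 were found for 5 and 2 loci for xpf-3 and for 3 and 3 for uvr8-6, lower dose first, and DESeq2 called 0, 0, 1 and 2. Over all 1109 loci 53, 52, 57 and 62 had such a p and 0 were called by edgeR in each test. Those called by DESeq2 over all loci were not counted. The smallest p of both uvr8-6 tests was that of U3 ENSRNA049493786, at a difference of 3.39 ± 0.74 after the lower dose (adjusted p = 0.204) and 2.81 ± 0.73 after the higher (adjusted p = 0.249).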

How the data were processed

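Small RNA of etiolated hypocotyls was sequenced in 27 libraries. The authors deposited whole-number counts of reads per annotated locus, and these counts were used as deposited. FastQC and cutadapt are named in the submitters' processing notes, without versions. For the aligner, genome build, counting tool, use of strand and handling of multiply mapping reads, the entry is "not given in the sources used here". Another 299 deposited columns of per-library values were not used.

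Counts of all loci were fitted in R 4.3.3 with edgeR 4.0.16 (TMM, filterByExpr with a minimum count of 10, 9 groups, 18 residual degrees of freedom), which left 1109 loci. The 16 comparisons were each dose against dark, each mutant against the wild type, and the differences in response. Calls were made at an adjusted p under 0.05 (Benjamini-Hochberg, over all loci). The standard error is the log2 change divided by the square root of the F statistic. The fit was tested on simulated data. Symbol sums were fitted alike. DESeq2 1.42.0 was an alternative.

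The limits for a paired AT row (1%, 50 counts) were set after seeing the data. The members and lists were chosen with earlier results of these data known. Loci named are the 10 with most counts, those called, those with the smallest p where fewer than 3 were called, and symbols with 3 or more tested loci. The labels do not say what a replicate number marks, so same-numbered libraries were not paired. Their deviations did not all correlate above 0.1 (-0.14 to 0.21), and whether a number marks a shared batch was not tested. At this depth, loci with few counts have a large counting error.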

Additional observations from a re-analysis of the deposited data

Results flagged for a closer look

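In 153 sets of 9 libraries (51 named loci in 3 genotypes), 15 held a highest or lowest library far from the rest by Dixon's test. Its nominal rate of about 1 in 20 assumes 1 normal population per set. Each set here pools 3 treatments, and many loci were named because they were called, so that rate does not apply. In 10 of the 15 sets the sample was uvr8-6 replicate 2 after the higher dose, as the highest of its genotype. They were snoR121 at 17414 CPM, snoZ152 ENSRNA049493898 at 2325, snoZ159 at 641, snoR8a ENSRNA049493830 at 490, snoR8a ENSRNA049493928 at 92.8, snoZ199 ENSRNA049495685 at 83.1, snoZ279_R105_R108 ENSRNA049495720 at 198, SNORD24 ENSRNA049493810 at 258 and the near-identical rows snoZ7 and snoR77Y ENSRNA049494622 at 136. The next highest uvr8-6 library was at 7872 CPM for snoR121 and at 320 for snoZ159. Without this library 36 of the 38 loci called in uvr8-6 against the wild type passed again, and SNORD24 ENSRNA049493726 (log2 change 0.64, edgeR adjusted p = 0.0536) and snoZ279_R105_R108 ENSRNA049495720 (0.34, adjusted p = 0.0926) did not.

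The others were snosnR60_Z15 ENSRNA049495684 at 443 CPM in wild-type replicate 1 after the lower dose, snoZ101 ENSRNA049495750 at 405 in wild-type replicate 2 after the higher dose, snoR8a ENSRNA049493830 at 274 in xpf-3 replicate 2 after the higher dose, snoZ101 ENSRNA049495727 at 45.0 in uvr8-6 dark replicate 2, and snoZ105 ENSRNA049494524 at 23.6 as the lowest, in xpf-3 dark replicate 2.

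After the higher dose all snoZ279_R105_R108 ENSRNA049493400 libraries were above the dark in the wild type (log2 change 0.70) and xpf-3 (0.90) and all were below it in uvr8-6 (-0.33). The test of the uvr8-6 difference from the wild type gave -1.03 ± 0.34 (edgeR adjusted p = 0.646), and that from xpf-3 was not tested.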

How the results depend on the processing

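None of the single-locus values followed under the alternatives reversed. These were the called loci of each comparison and, where fewer than 3 were called, the 3 with the smallest p. Other single-locus values given above, among them small changes that did not pass, were not compared across the alternatives. The count of loci called in uvr8-6 against the wild type over treatments (38) was 35 to 41 under other settings and 35 to 41 with each library left out, and 29 of the 38 loci passed under every alternative. The count after the higher dose in the mean of the genotypes (17) was 12 to 24 under other settings and 14 to 24 with a library left out, and 5 of the 17 passed throughout. Its symbol count of 16 was 8 (3 higher, 5 lower) with snoRNA-row library sizes. Of 2376 single-locus values under an alternative, 173 missed the threshold and 19 newly passed it.

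DESeq2 called 7 loci in the wild type and 13 in xpf-3 after the higher dose and 2 in uvr8-6, against 1, 2 and 1 with edgeR. After the lower dose it called 7 in xpf-3, 1 in uvr8-6 and 6 in the mean of genotypes, against 0, 0 and 1. For the uvr8-6 differences in response it called 1 and 2, against 0 and 0. Without the filter on low counts the counts were 0 in the wild type, 1 in xpf-3 and 0 in uvr8-6 after the higher dose, and 0 for the mean after the lower. snoRNA-row library sizes gave 5 in xpf-3 after the higher dose, 1 in uvr8-6 and 0 in the mean after the lower. Fitting only the groups compared gave 0 in each genotype after the higher dose, and 0 for uvr8-6 in the dark (19 with all groups). Leaving out the paired AT rows, an alternative chosen after seeing the data, gave 5 in xpf-3 after the higher dose. Shares called over all loci were not counted under any alternative, so a setting that calls more loci of every class cannot be told apart from 1 that calls more snoRNAs. The cause was not tested in any of these.

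With each library left out in turn the counts ranged from 0 to 3 in the wild type, 0 to 5 in xpf-3 and 0 to 1 in uvr8-6 after the higher dose, from 0 to 2 for the mean after the lower, from 5 to 17 for uvr8-6 in the dark, and from 0 to 1 for the uvr8-6 difference after the lower dose. Those in single genotypes fell to 0 without wild-type dark replicate 3, either of wild-type higher-dose replicates 1 and 2, xpf-3 dark replicate 2, uvr8-6 dark replicates 1 or 2, or any uvr8-6 higher-dose library. They rose to 3 without wild-type dark replicate 1 or higher-dose replicate 3 and to 5 without xpf-3 dark replicate 3.

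Same-numbered libraries had a median correlation of deviations of 0.03 (108 pairs, -0.14 to 0.21), against -0.008 for libraries of other numbers. Of 27 libraries 16 correlated best with their own number, more than an even spread over the 3 numbers gives. With the replicate number as a block the count was 38 in uvr8-6 over treatments, 18 after the higher dose in the mean, 1 after the lower dose in xpf-3 and 0 after the higher dose in uvr8-6.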
